A study of Bubalus bubalis with 6 samples.

Results

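The genes described here build and run the mitotic spindle, the kinetochores and the cleavage furrow of dividing buffalo muscle stem cells (MuSCs). They were chosen by gene symbol from a list of 60 mitotic genes, and 55 of these symbols are among the 24616 genes of the deposited gene table. INCENP, KIF20B, KIF4A, PTTG1 and SGOL1 are not listed under these symbols and were not analysed here. CENPA is listed but had no counts, so 54 genes were tested. The cells are primary MuSCs of water buffalo, released from fetal longissimus muscle with collagenase and trypsin. The 3 GM samples were cells proliferating in growth medium with fetal bovine serum. The 3 DM samples were cells switched near confluence to differentiation medium, with a lower percentage of serum, from horse. They were kept in it for days, and myotubes form there. Serum, cell density and days in culture thus changed together with differentiation, and their parts cannot be told apart here. No genotype, strain or other agent separates the groups, and nothing in the labels ties the samples to separate fetuses or cultures. The p-values therefore measure the spread between these samples only, which may be technical.

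Mitosis is driven by cyclin B bound to the kinase CDK1, which starts chromosome condensation and spindle assembly. Kinetochores then attach each chromosome to spindle microtubules, and the spindle assembly checkpoint holds back separation of the chromatids until all are attached. The anaphase-promoting complex ends this wait by marking cyclin B and securin for destruction, and the central spindle and the cleavage furrow split the cell. Myoblasts leave the cell cycle when they differentiate, and the nuclei of myotubes do not divide. Polyadenylated RNA from a culture averages over its cells, so fewer dividing cells and less of each RNA per cell cannot be told apart in these values.

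The samples held 35615864 to 40305237 counts on genes. The chi-square of gene counts between pairs of GM samples was 6.22 to 10.6 times its degrees of freedom. That of DM replicates 1 and 2 was 11.7 times, and DM replicate 3 stood apart from both, at 40.5 and 41.4 times. Without DM replicate 3 all the mitotic genes tested here were still called lower, with a median log2 fold change, DM over GM, of -1.95 in place of -1.92. Of 12 markers of myogenic cells, all had counts, and edgeR called 5 higher and 2 lower in DM samples, by the thresholds given below. Of all tested genes, 15% were called higher and 10.3% lower. CKM, the muscle creatine kinase, and MYOG, a myogenic regulatory factor, were among the higher genes, and MYF5, a myogenic factor of myoblasts, and ITGA7, an integrin of muscle cells, were the lower ones, with log2 fold changes of -2.70 and -1.96. The other higher genes were ACTA1, MYH3 and MYMK. In GM samples MYOG, ACTA1 and MYH3 already had means of 52.9, 187 and 346 CPM, beside 167, 1649 and 2064 CPM in DM samples. MYMK and CKM had 10.6 and 1.19 CPM in GM samples. GM replicate 2 was the lowest GM sample for each of these 5 genes. PAX7, which marks satellite cells, had 18.5 CPM in GM samples and 9.77 CPM in DM samples, without overlap of the groups. It was not called, since its log2 fold change of -0.92 (adjusted p = 0.00232 from edgeR) fell short of the fold threshold. MYOD1, a myogenic regulatory factor, also fell short of it, at 0.90 (adjusted p = 0.00202 from edgeR), with all DM samples above the GM samples. NCAM1 and CDH15 were not called but were lower in all DM samples, with log2 fold changes of -0.60 and -0.53. DES, at -0.15, overlapped between the groups. Of the 12 myogenic markers, 6 had a negative log2 fold change. Fibroblast markers were abundant in both groups, other than TCF21, which had too few counts to be tested. The summed level of all 8 was 25787 to 26112 CPM (counts scaled to a common library total) in GM samples. In DM samples it was 74954 to 92214 CPM, with 5 of the 7 tested called higher and none lower. Most of each sum came from COL1A1 and COL3A1, with TMM-scaled means of 15287 and 8298 CPM in GM samples. Their means in DM samples were 44328 and 39251 CPM. PDGFRA and DPT were higher in all DM samples but were not called, with log2 fold changes of 0.58 and 0.96. The 12 myogenic markers, summed in the same way, had 3574 to 4208 CPM in GM samples and 5506 to 7502 CPM in DM samples. Summed markers of endothelial cells, of blood and immune cells and of adipocytes stayed at or below 13.0 CPM in each sample. LYZ was at 0, and PTPRC, PECAM1 and ADIPOQ were each under 1 CPM. At these low levels 1 of 6 tested endothelial markers was called higher and 2 lower. For blood and immune cells 1 of 5 was called higher and 1 lower, and for adipocytes 2 of 4 higher and 0 lower. CD14, the higher blood and immune marker, had 1.09 CPM in GM samples and 7.40 CPM in DM samples. Markers of pericytes and smooth muscle summed to between 1282 and 1666 CPM, with none of 6 called. The part of the fibroblast markers in the falls described here was not tested.

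All 54 mitotic genes with counts fell in DM samples. A gene was called when its log2 fold change, DM over GM, lay beyond 1 in either direction and its adjusted p-value from edgeR's quasi-likelihood test was under 0.05, with adjustment over the 15576 genes tested. The largest adjusted p-value from edgeR among the 54 genes was 3.54e-05, and the largest standard error of a log2 fold change was 0.213. Over all tested genes, 10.3% were called lower and 15% higher. The DM samples all lay below the GM samples for each of the 54 genes, and for 34.3% of all tested genes. The median log2 fold change was -1.92, beside 0.03 for all tested genes, and the single falls ranged from 2.25-fold for KIF18A to 6.56-fold for NCAPH. No member fell by more than 8-fold. In 26 of them the fall was larger than 4-fold, which 3.5% of all tested genes reached. Each member ranked among the 10% of tested genes with the largest falls, between rank 260 and rank 1475.

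The genes together took 0.752, 0.741 and 0.745% of all gene counts in the GM samples. Their share was 0.153, 0.203 and 0.174% in the DM samples. In DM samples the level left was 15.2 to 44.5% of the level in GM samples, with a median of 26.5%. None was silent, since the lowest count of any of the 54 genes in a DM sample was 71, for SPC25. Levels by sample are given here as CPM scaled with TMM factors, as values of replicates 1, 2 and 3 in that order.

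**Figure D1:**
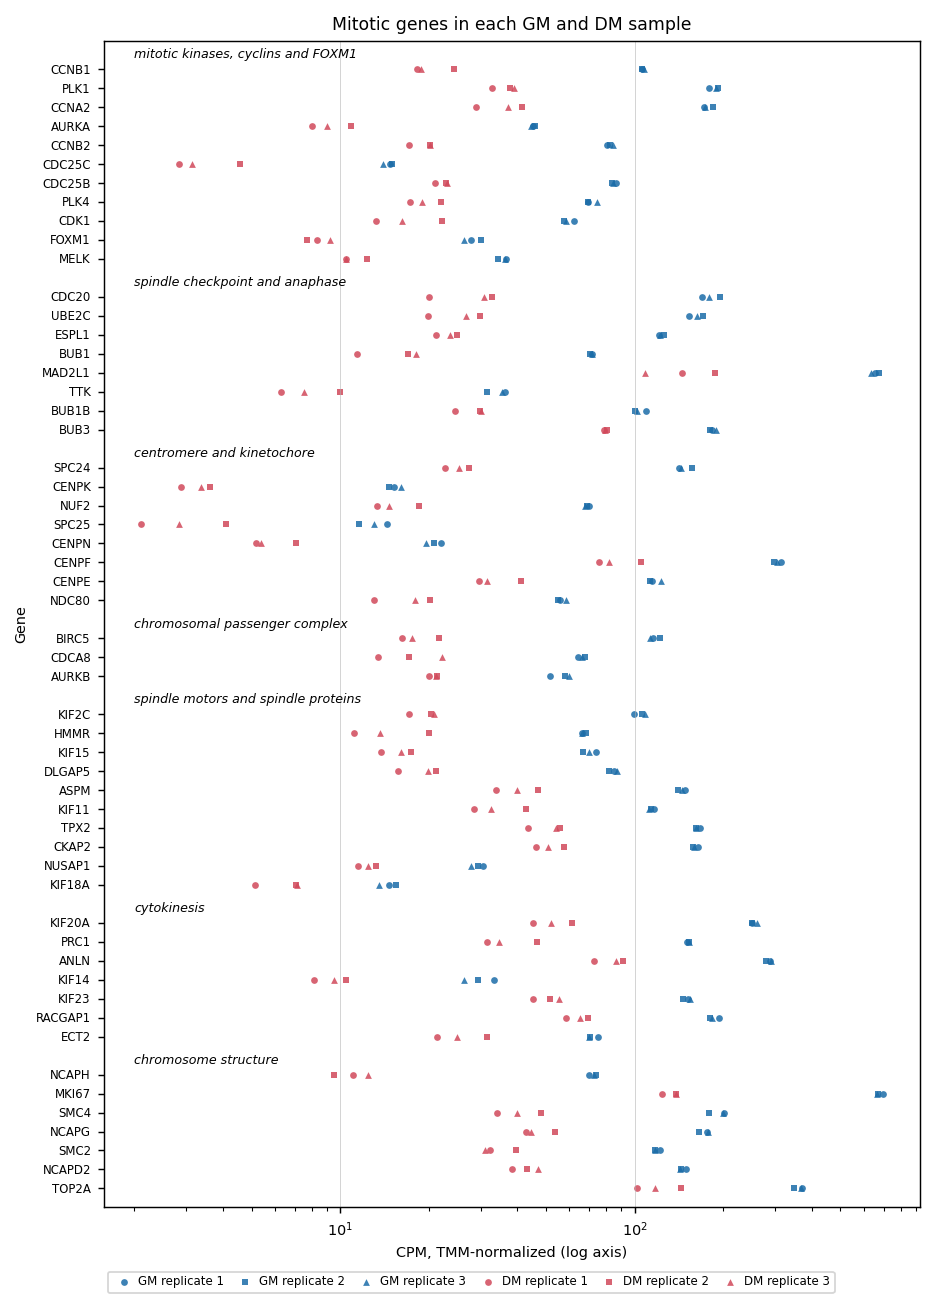
TMM-normalized CPM (log axis) of the 54 mitotic genes in each of the 3 GM samples (blue) and 3 DM samples (red), with a symbol for each replicate and genes ordered by role and by size of fall. The red points lie to the left of the blue points for each gene, and the blue points are closer together than the red points for 52 of the 54 genes when the spread is taken as a percent of the mean.

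The kinases and cyclins of mitotic entry, with the transcription factor FOXM1, were 11 genes with a median log2 fold change of -2.05. CDK1 (ENSBTAG00000010109, chromosome 28, 16620266 to 16633922), the kinase that drives entry into mitosis, had 62.2, 57.7 and 58.4 CPM in GM samples and 13.2, 22.1 and 16.3 CPM in DM samples. CCNB1, its cyclin B partner, had 106, 106 and 107 CPM in GM samples and 18.2, 24.3 and 18.8 CPM in DM samples. The groups were far apart for both genes, and DM replicate 2 was the highest DM sample. The log2 fold change was -1.79 for CDK1 (standard error 0.150, adjusted p = 2.11e-06 from edgeR) and -2.38 for CCNB1 (standard error 0.105, adjusted p = 2.46e-08 from edgeR). The CDK1 level per length, as RPKM, was 0.65 times that of CCNB1 in GM samples and 0.98 times in DM samples. PLK1, a kinase that acts from centrosome maturation to cytokinesis, had 179, 192 and 188 CPM in GM samples and 32.9, 37.9 and 38.9 CPM in DM samples, and its log2 fold change was -2.35. FOXM1, which activates many genes of late G2 and mitosis, had 27.8, 30.1 and 26.3 CPM in GM samples and 8.35, 7.71 and 9.24 CPM in DM samples. Here DM replicate 2 was the lowest DM sample, unlike CDK1 and CCNB1, and the log2 fold change was -1.73. The smallest fall of these genes was that of MELK, a kinase of dividing cells, with 36.5, 34.3 and 36.2 CPM in GM samples and 10.5, 12.4 and 10.4 CPM in DM samples and a log2 fold change of -1.68. The others were CCNA2 (-2.30), the cyclin of S phase and G2, AURKA (-2.28), the Aurora kinase of spindle poles, CCNB2 (-2.11), the phosphatases CDC25C (-2.05) and CDC25B (-1.93), which activate CDK1, and PLK4 (-1.87), the kinase of centriole duplication, all on the log2 fold change scale.

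Of the genes of the spindle checkpoint and anaphase, 8 were tested, with a median log2 fold change of -2.18 and the widest range of any role. CDC20 (ENSBTAG00000009819, chromosome 3, 103238486 to 103242373) activates the anaphase-promoting complex and had 169.9, 195 and 179 CPM in GM samples and 19.95, 32.7 and 30.8 CPM in DM samples. UBE2C, the ubiquitin-conjugating enzyme of that complex, had 153, 171 and 163 CPM in GM samples and 19.9, 29.8 and 26.7 CPM in DM samples. DM replicate 1 was the lowest sample for both, and the log2 fold changes were -2.70 (standard error 0.154, adjusted p = 1.31e-07 from edgeR) and -2.67 (standard error 0.128). At the other end, BUB3 (ENSBTAG00000017913, chromosome 26, 43276923 to 43288958), a checkpoint protein that brings BUB1 and BUBR1 to kinetochores, had 183, 181 and 189 CPM in GM samples and 78.6, 80.8 and 79.1 CPM in DM samples. The SD of its 3 DM samples was 1.43% of their mean, and its log2 fold change was -1.21 (standard error 0.0572, adjusted p = 3.77e-08 from edgeR). BUB1, the checkpoint kinase, fell by 2.20 on the log2 scale and BUB1B, which encodes BUBR1, by 1.88. The log2 ratio of BUB1 to BUB3 CPM was -1.35, -1.36 and -1.40 in GM samples and -2.79, -2.25 and -2.12 in DM samples, without overlap. ESPL1, the separase that cuts cohesin, fell by 2.40 and TTK, the MPS1 checkpoint kinase, by 2.11 on the log2 scale.

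MAD2L1, the checkpoint protein MAD2, was singled out after its values were seen. Its level per length was the highest of the 54 genes, at 482 ± 15.5 RPKM in GM samples and 101 ± 28.5 RPKM in DM samples (SD, n = 3 each), where the median gene had 31.8 and 8.57 RPKM. By sample it had 656, 677 and 634 CPM in GM samples and 144, 188 and 108 CPM in DM samples. DM replicate 3 was the lowest of its samples, whereas DM replicate 1 was the lowest for most of the other genes. The log2 fold change of MAD2L1 was -2.16 (standard error 0.159), and whether reads of similar sequence elsewhere add to this count was not tested.

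Among centromere and kinetochore genes, CENPA, the centromeric histone H3, is listed with 0 counts in all 6 samples, and for this row a count of 0 allows up to 0.0744 to 0.0842 CPM per sample. The row (ENSBTAG00000017396, chromosome 10, 239073 to 239764) is 429 bases long and is the only row with this symbol, and 6039 rows of the table have an identifier in place of a symbol. Whether it is the expressed CENPA gene could not be checked without a genome of the files' build, so its zero is not read as the level of CENPA. The other 8 genes all fell, with a median log2 fold change of -1.96. SPC24, a subunit of the Ndc80 complex that binds microtubules, had 141, 157 and 144 CPM in GM samples and 22.7, 27.4 and 25.3 CPM in DM samples. CENPK, of the inner kinetochore, had 15.2, 14.6 and 16.1 CPM in GM samples and 2.87, 3.61 and 3.38 CPM in DM samples. NDC80, which gives the complex its name, had 55.6, 55.1 and 58.4 CPM in GM samples and 13.0, 20.1 and 17.9 CPM in DM samples. DM samples were well below GM samples for these genes, also for CENPK with its low counts, and the log2 fold changes were -2.55, -2.22 and -1.72 with standard errors of 0.0839, 0.130 and 0.131. The 4 subunits of the Ndc80 complex differed in level per length, with 216 ± 11.9 RPKM for SPC24, 39.6 ± 0.691 for NUF2, 26.2 ± 0.822 for NDC80 and 13.2 ± 1.45 for SPC25 in GM samples (SD, n = 3). In DM samples they kept this order, at 34.5 ± 3.80, 8.36 ± 1.58, 7.41 ± 1.70 and 2.86 ± 1.01 RPKM, although the log2 ratio of NDC80 to SPC24 CPM moved from between -1.51 and -1.30 to between -0.80 and -0.44. NUF2 fell by 2.15, SPC25 by 2.11 and the inner kinetochore gene CENPN by 1.82 on the log2 scale. CENPF, a large kinetochore protein, and CENPE, a kinetochore kinesin, fell by 1.80 and 1.78 on that scale.

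The chromosomal passenger complex corrects faulty attachments and later acts at the midzone, and 3 of its subunits were tested. BIRC5, the survivin subunit (ENSBTAG00000013573, chromosome 19, 54559538 to 54566816), had 115, 122 and 112 CPM in GM samples and 16.3, 21.7 and 17.5 CPM in DM samples. CDCA8, the borealin subunit, had 64.4, 67.6 and 66.0 CPM in GM samples and 13.4, 17.1 and 22.2 CPM in DM samples. AURKB, the kinase of the complex, had 51.4, 58.2 and 59.9 CPM in GM samples and 20.04, 21.3 and 21.2 CPM in DM samples. The GM and DM values did not overlap, but the size of the fall was unequal, with log2 fold changes of -2.65 (standard error 0.104), -1.91 (0.144) and -1.44 (0.0797). In DM samples 36.9% of the GM level of AURKB was left and 15.9% of that of BIRC5.

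**Figure D2:**
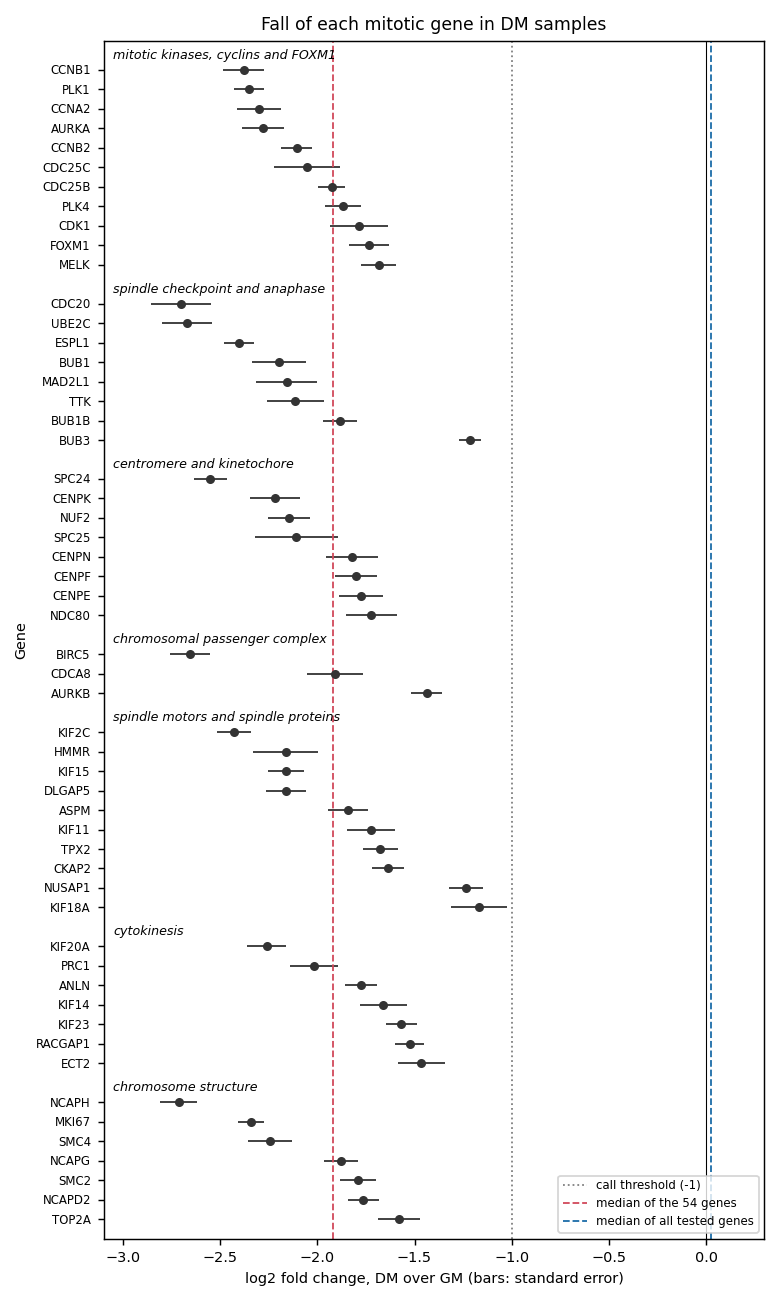
Log2 fold change, DM over GM, of the 54 mitotic genes with the standard error from edgeR as a bar, grouped by role. All points lie between -2.71 (NCAPH) and -1.17 (KIF18A), left of the call threshold, while the median of all tested genes is 0.03.

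The 10 motors and spindle proteins had a median log2 fold change of -1.78. KIF2C, a kinesin that takes microtubules apart at centromeres, had 99.5, 106 and 109 CPM in GM samples and 17.1, 20.4 and 20.8 CPM in DM samples. HMMR, a spindle pole protein, had 66.2, 68.4 and 66.5 CPM in GM samples and 11.1, 20.002 and 13.7 CPM in DM samples. KIF18A, a kinesin that limits chromosome movement at the metaphase plate, had 14.7, 15.4 and 13.5 CPM in GM samples and 5.15, 7.08 and 7.16 CPM in DM samples. KIF18A had the smallest fall of all 54 genes, and its DM replicates 2 and 3 were closest to the GM samples. Its log2 fold change was -1.17 (standard error 0.142, adjusted p = 3.54e-05 from edgeR), against -2.43 for KIF2C and -2.16 for HMMR. When the test asked for more than a 2-fold change, 53 of the 54 genes passed and KIF18A did not (adjusted p = 0.215 from edgeR's glmTreat), where 5.75% of all tested genes were lower at that threshold. NUSAP1, which bundles spindle microtubules, had the next smallest fall of these 10 genes, -1.23. In between were KIF15 (-2.16) and KIF11 (-1.72), which push spindle poles apart, DLGAP5 (-2.16) and TPX2 (-1.68), which help to assemble the spindle, ASPM (-1.84), of spindle poles, and CKAP2 (-1.64), a microtubule-associated protein, all on the log2 fold change scale.

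Cytokinesis was represented by 7 tested genes, with a median log2 fold change of -1.66. KIF20A, a kinesin of the central spindle (ENSBTAG00000008758, chromosome 7, 51214237 to 51222637), had 250.0, 249.9 and 259 CPM in GM samples and 45.1, 61.4 and 52.0 CPM in DM samples. PRC1, which crosslinks antiparallel microtubules of the central spindle, had 151, 153 and 153 CPM in GM samples and 31.6, 46.7 and 34.6 CPM in DM samples. ECT2, the exchange factor that activates RhoA at the furrow, had 75.2, 70.3 and 69.8 CPM in GM samples and 21.3, 31.6 and 25.0 CPM in DM samples. DM replicate 1 was lowest and DM replicate 2 highest for these 3 genes, and the log2 fold changes were -2.26 (standard error 0.101), -2.02 (0.124) and -1.47 (0.122). KIF23 and RACGAP1 form centralspindlin, the complex that recruits ECT2, and their log2 fold changes were -1.57 and -1.52. Their CPM ratio hardly moved, with log2 ratios of -0.35, -0.31 and -0.25 in GM samples and -0.37, -0.44 and -0.24 in DM samples. ANLN, the furrow scaffold anillin, had -1.78 and KIF14, a kinesin of the midbody, -1.66 as log2 fold change.

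Genes of chromosome structure included the gene with the highest mean CPM of the 54 over the GM samples. MKI67 (ENSBTAG00000002444, chromosome 26, 47851223 to 47879459) encodes Ki-67, which coats mitotic chromosomes and is the usual marker of cycling cells, and had 699, 668 and 663 CPM in GM samples and 124, 139 and 138 CPM in DM samples. TOP2A, the topoisomerase that untangles chromatids, had 370.1, 347 and 367 CPM in GM samples and 102, 144 and 117 CPM in DM samples. NCAPH, the kleisin subunit of condensin I, had 70.0, 73.9 and 73.0 CPM in GM samples and 11.0, 9.56 and 12.5 CPM in DM samples. All 3 DM samples of each gene were far below the GM samples, and TOP2A was highest in DM replicate 2. The log2 fold changes were -2.34 (standard error 0.0676, adjusted p = 2.14e-09 from edgeR), -1.58 (standard error 0.107) and -2.71 (standard error 0.0969). The condensin I subunits SMC2, SMC4, NCAPD2 and NCAPG had log2 fold changes of -1.79, -2.24, -1.76 and -1.88, all smaller falls than that of NCAPH. The log2 ratio of NCAPG to NCAPH CPM was 1.34, 1.16 and 1.28 in GM samples and 1.96, 2.49 and 1.83 in DM samples, so that the groups did not overlap. With NCAPD2 in place of NCAPG the ratio lay between 0.96 and 1.09 for GM and between 1.80 and 2.17 for DM. These ratios, like those of CDK1 to CCNB1, BUB1 to BUB3, NDC80 to SPC24 and KIF23 to RACGAP1, were formed after the values of the genes were seen and were not tested.

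**Figure D3:**
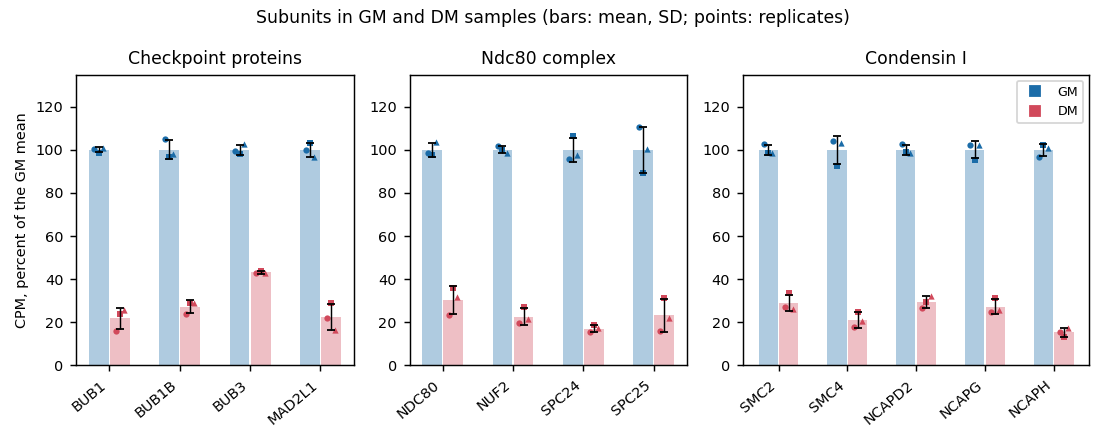
CPM of checkpoint proteins, Ndc80 complex subunits and condensin I subunits as a percent of the gene's GM mean, with bars for the mean and SD of 3 samples and points for replicates. BUB3 kept the most of its GM level (43.1% from the fit) and NCAPH the least (15.2%).

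The fall was much the same for the transcripts listed for these genes. The mRNA table lists 61 transcripts for the 55 genes, and all 60 transcripts with enough counts were called lower by edgeR, where 10.1% of all tested transcripts were. Only CCNB2, CENPE, MKI67, SMC4 and TTK have more than 1 listed transcript. Their transcript counts add up to between 1.25 and 2.36 times the gene count in GM replicate 1, so shared reads were counted more than once and the transcripts are not separate measurements. The log2 fold changes of transcripts of the same gene differed by at most 0.14, for SMC4.

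The DM samples were not alike in these genes. Of the 54 genes, 49 were lowest in DM replicate 1 among DM samples and 43 were highest in DM replicate 2, whereas 31.9% of all tested genes were lowest in DM replicate 1 and 32.1% highest in DM replicate 2. The median gene stood at -2.17, -1.75 and -1.95 in DM replicates 1, 2 and 3 relative to its GM mean, on the log2 CPM scale. In 52 of the 54 genes DM replicate 2 was above DM replicate 1, by a median ratio of 1.29 beside 0.999 over all tested genes. FOXM1 and NCAPH were the exceptions. The GM samples showed no such order, with 15, 24 and 15 genes lowest in replicates 1, 2 and 3. The SD over the 3 samples, as a percent of the mean, had a median of 3.42% in GM samples and 15.2% in DM samples over the 54 genes, and of 4.84% and 7.27% over the 8981 tested genes averaging 10 CPM or more. The other mitotic genes, a list described further on, had the same order of medians, with 78 of 148 lowest in DM replicate 1 and 77 highest in DM replicate 2, and medians of -0.06, 0.07 and -0.001 around the mean of the 3 DM samples on the log2 CPM scale. Among genes of DNA replication DM replicate 3 was the highest DM sample for 25 of 48 and DM replicate 1 for 8. Without DM replicate 1 the median log2 fold change of the mitotic genes was -1.84, and without DM replicate 2 it was -1.98.

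**Figure D4:**
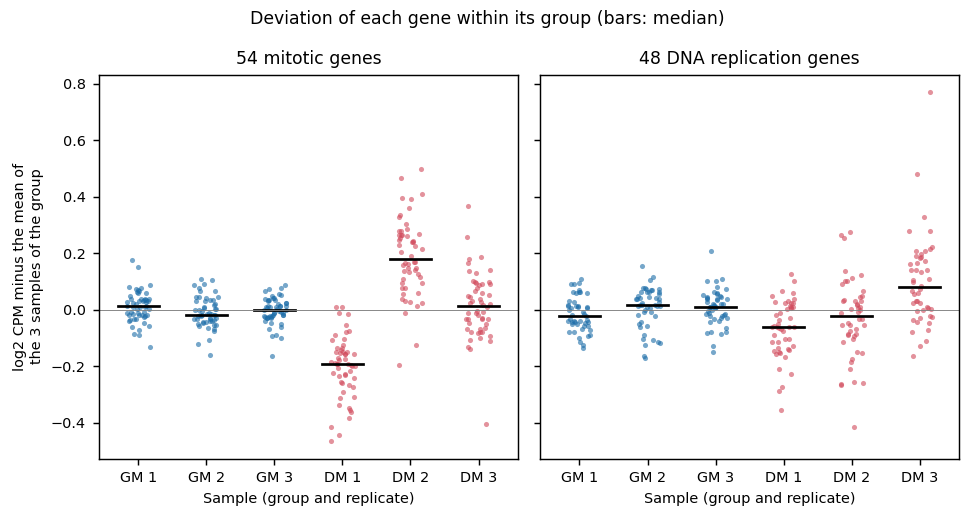
Log2 CPM of each gene minus the mean of the 3 samples of its group, for the 54 mitotic genes (left) and 48 DNA replication genes (right), with the median of each sample as a bar. For the mitotic genes the medians are -0.19, 0.18 and 0.01 in DM replicates 1, 2 and 3 and within 0.02 of 0 in GM samples.

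Other genes of the mitotic machinery were compared as a list of 163 symbols, of which 148 were tested. edgeR called 66 of them lower and 3 higher, with a median log2 fold change of -0.88, beside 10.3% lower and 15% higher over all genes. Among 31 other kinetochore genes 24 were called lower and none higher, with a median of -1.41, and CENPT, an inner kinetochore protein that recruits the Ndc80 complex, fell by 2.56 on the log2 scale, from 64.3 ± 1.32 to 10.9 ± 0.475 CPM (SD, n = 3 each). Among 19 other motors and spindle proteins 12 were called lower, with a median of -1.30. The anaphase-promoting complex and its regulators had 5 of 15 called lower and a median of -0.59, while its activator CDC20 and its enzyme UBE2C, described above, had falls of over 6-fold. Cohesin, which holds sister chromatids together and also shapes chromosomes of cells that do not divide, had 2 of 13 called lower and a median of -0.26. Centrosome genes had 9 of 27 called lower. Regulators of mitotic entry and exit had 9 of 20 called lower and 1 higher, with a median of -0.59. Condensin II had 2 of 3 called lower and a median of -1.39. In the remaining cytokinesis genes 3 of 20 were called lower and 2 higher, with a median of -0.06, and CEP55, a midbody protein, fell by 2.63 on the log2 scale. The shares called lower in cohesin and in these cytokinesis genes, 15.4% and 15%, were near the 10.3% of all tested genes. The 3 genes called higher, given with their log2 fold changes, were NEK6, a kinase of the NIMA family (1.06), CHMP4C, an ESCRT-III subunit (1.51), and TEX14, which blocks abscission in germ cells (1.97), the last at 0.475 ± 0.129 CPM in GM samples and 1.87 ± 0.539 CPM in DM samples.

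The DREAM and MuvB complexes bind promoters of mitotic genes and repress them in resting cells or, with MYBL2 and FOXM1, activate them in cycling cells. Of 12 subunits, 3 were called lower, 1 higher and 8 not, with a median log2 fold change of -0.46, beside 10.3% lower and 15% higher over all genes. Any part of these subunits in the falls of the mitotic genes was not tested. MYBL2, the activating B-MYB subunit, went from 466 ± 19.6 to 77.7 ± 3.73 CPM (SD, n = 3 each). Its log2 fold change was -2.58 (adjusted p = 1.12e-09 from edgeR, standard error 0.0665). LIN9, of the MuvB core, and E2F4, the E2F of the repressing complex, fell by 1.37 and 1.02. RBL2, the p130 pocket protein of the repressing complex, rose from 27.7 ± 2.05 to 57.3 ± 2.95 CPM, which is 1.05 on the log2 scale (standard error 0.0788). Of these lists the DNA replication genes had the lowest median, with 39 of 48 called lower, none higher and a median log2 fold change of -1.63. That list held 50 symbols, of which MCM4 and RFC1 are not listed in the gene table and were not analysed. RRM2, a subunit of ribonucleotide reductase, fell most, by 3.05 on the log2 scale from 199.6 ± 3.50 to 24.0 ± 2.61 CPM, and the origin-binding ORC1 came next. ORC4 and RPA1, which did not pass the test, had log2 fold changes of 0.13 and -0.05. These lists are described by their counts and medians, and the difference between lists was not tested.

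**Figure D5:**
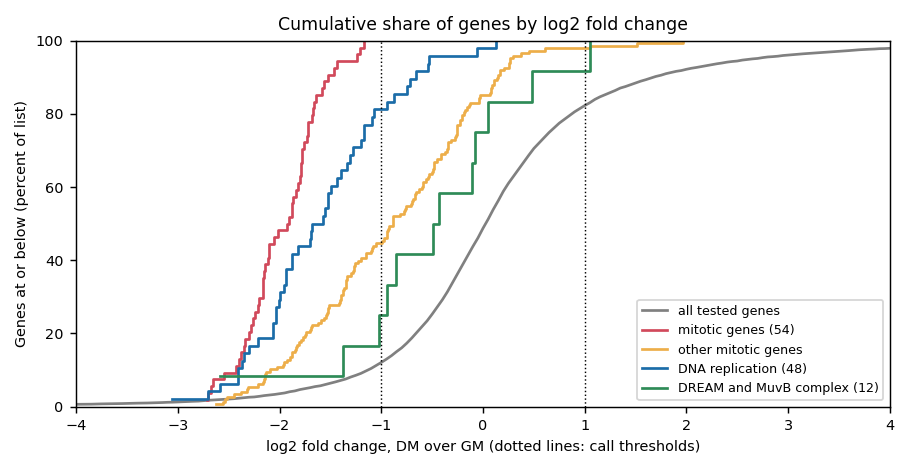
Cumulative percent of genes at or below each log2 fold change, DM over GM, for all 15576 tested genes, the 54 mitotic genes and 3 other lists. The curve of the mitotic genes lies wholly left of the lower call threshold, and 81.3% of the DNA replication genes and 44.6% of the other mitotic genes were called lower.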

How the data were processed

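Polyadenylated RNA of 3 GM and 3 DM samples was sequenced by the authors, who aligned reads with HISAT2 and deposited raw counts per gene and per mRNA transcript, without normalization. The deposited RPKM values follow from these counts, the listed length of the gene and the summed counts of the sample. The methods of the study name the buffalo genome, the submitters' processing notes name Bowtie 0.12.2 with mm8 and mm9, and the tables list cattle Ensembl identifiers, so the build is uncertain and coordinates are given as listed. The counter and its strand setting are not given in the sources used here. Deposited lists of the authors' own fold changes, p-values and q-values were not used, nor was the ncRNA table.

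Genes with at least 10 counts in total were tested with edgeR 4.0.16 (glmQLFit and glmQLFTest, TMM factors) in R 4.3.3, without a replicate block, with Benjamini-Hochberg adjustment over all of them. Standard errors were taken from the F statistic. Depth was similar in all samples, and the limit drawn from 3 counts covers counting error only. Alternatives were DESeq2 1.42.0, other scalings, filters and fold thresholds, a replicate block and each sample left out. The pipeline was tested on simulated counts with planted changes and the same dispersion for every gene. That run checks the code only, since it does not copy the unequal DM samples of these data. Summaries used Python 3.11.15 and pandas 2.3.3.

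The mitotic genes, the gene lists and the tests were chosen with earlier results of these data known. Values by sample are given for the 2 largest falls and the smallest fall of each role, for CDK1, CCNB1, AURKB, TOP2A, MKI67 and FOXM1, for any gene not called or overlapping, and for MAD2L1. From other lists the 2 largest falls and the genes called higher are named. E2F4, CKM, MYOG, ACTA1, MYH3, MYMK, MYF5, ITGA7, PAX7, MYOD1, NCAM1, CDH15, DES, COL1A1, COL3A1, PDGFRA, DPT, TCF21, CD14, ORC4 and RPA1 were added after their values were seen.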

Additional observations from a re-analysis of the deposited data

How the results depend on the processing

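All 54 mitotic genes stayed called lower with DESeq2, library size alone, DESeq2's size factors, each filter on low counts, the replicate block and each sample left out in turn, and 53 did in the test against a fold change of 2, where KIF18A was lost. Calling with no minimum fold change can only add genes, so that setting could not lose any of the 54. With each sample left out in turn, their median log2 fold change ran from -1.98 to -1.84, and it was -2.01 with library size alone, which moved the median of all tested genes to -0.07. Of the 60 transcripts, 59 to 60 were called in each of these settings. The number of other mitotic genes called (69) rose to 127 with no minimum fold change and was 68 to 72 when each sample was left out. The number of all genes called (3936) was 9813 with no minimum fold change, 2293 in the test against a fold change of 2 and 2197 with the RPKM rule, which tests 11587 genes, and 3647 to 3995 when each sample was left out. Whether same-numbered samples are paired is not stated. The correlation of deviations from the group means between same-numbered samples was between -0.022 and -0.0076. Between samples of different number it was between -0.012 and 0.024. These values cannot decide on pairing, since genes with few counts weigh as much in them as other genes. With the replicate number as a block, 54 mitotic genes, 60 transcripts, 70 other mitotic genes and 3837 genes were called, and the median log2 fold change of the mitotic genes was -1.93. For 7 of the 55 genes the interval overlaps another listed gene, none of which had more than 9 counts in a sample.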

Other observations

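The 54 tested mitotic genes are scattered over 25 chromosomes of the listed annotation, with at most 5 tested genes on the same chromosome (CCNB2, BUB1B, NUSAP1, DLGAP5 and KIF23 on chromosome 10, where the untested CENPA row is listed too). The closest neighbours were KIF20A and CDC25C on chromosome 7, with 90837 bases between them. Their listed lengths run from 705 bases (SPC24) to 10529 bases (ASPM). Across the 54 genes the log2 fold change had a Spearman rho of 0.25 with length and of -0.26 with the mean RPKM in GM samples. These values describe genes of the same 6 libraries, which are not independent, and the RPKM shares its counts with the fold change.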
